A study of Mus musculus with 2 samples.

Results

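The genes described here are 32 genes chosen as androgen-regulated or castration-raised in prostate, from the co-chaperone gene Fkbp5 to clusterin, Clu. They were taken by gene symbol. Among the probe sets that the platform annotation gives exactly 1 symbol, the brightest of a gene, by its log2 signal averaged over the arrays, stood for that gene. Of the 32, 30 had such a probe set under the listed symbol, out of 18193 genes on the array. Signals of Sord and Ankh were not analysed here. Ventral prostate mRNA of C57BL/6J males aged 3 months was profiled in 1 sample labelled U19/Eaf2 -/- and 1 labelled U19/Eaf2 +/+, each on 1 array. The sample titles name prostates in the plural, and the sources used here do not say whether several animals were pooled, how the allele was made or which part of the gene it removes. No castrated or androgen-treated sample was among these arrays, so that the name of the list was not itself measured. With 1 array per group there was no test, and every difference below is one between these 2 arrays.

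Androgens act in the prostate through a hormone-activated nuclear receptor that binds DNA as a dimer at paired copies of a short element and raises or lowers transcription of nearby genes. Luminal secretory cells need this signal, and castration makes most of them die while the remaining epithelium raises a different set of transcripts, of which Clu is the classic example in rodents. U19/Eaf2 is itself an androgen-induced factor that binds ELL-family transcription elongation factors. Many of the genes listed here were named as androgen targets in human prostate cancer cells, and several, such as Fkbp5, Zbtb16, Tsc22d1 and Sgk1, also respond to glucocorticoids through the related glucocorticoid receptor.

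Sequence upstream of the start site was taken from RefSeq, build GRCm38.p6, which held promoter windows for 19 of the 32 genes. The 250 bases before each start were searched on both strands for the steroid receptor element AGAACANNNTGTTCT and for its 6-base unit AGAACA, whose other strand reads TGTTCT. A match to the long form also holds matches to the unit. The long form was in 3 of 32851 windows of all genes, 0.00913%, and 1 of these was a window of Sgk1, with the others at Acnat2 and the predicted gene Gm35041, named here after the matches were seen. The unit was in 5284 windows, 16.1%, and in 8 of the 34 windows of the listed genes, belonging to 6 genes. A match describes letters and is not a binding site. Windows of 4 genes are printed, in 5′ to 3′ direction of the gene with the 6-base units in capitals. The Sgk1 window printed, chr10:21993640-21993889 (plus strand), holds the long form, which begins 189 bases before its start. Sgk1 had several windows, and more than 1 of them was among the 8. The Abcc4 window printed, chr14:118676932-118677181 (minus strand), belongs to a gene that read higher on the knockout-labelled array. Another window of Abcc4, chr14:118706220-118706469 (minus strand), held no unit. The windows of Spdef, chr17:27728952-27729201 (minus strand), and Sprr1a, chr3:92485882-92486131 (minus strand), belong to genes that read lower.
Sgk1: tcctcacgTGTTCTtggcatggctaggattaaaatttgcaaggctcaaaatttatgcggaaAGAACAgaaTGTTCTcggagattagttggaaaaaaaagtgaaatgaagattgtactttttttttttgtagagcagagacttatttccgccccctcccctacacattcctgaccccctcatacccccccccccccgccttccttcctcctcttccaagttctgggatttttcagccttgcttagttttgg
Abcc4: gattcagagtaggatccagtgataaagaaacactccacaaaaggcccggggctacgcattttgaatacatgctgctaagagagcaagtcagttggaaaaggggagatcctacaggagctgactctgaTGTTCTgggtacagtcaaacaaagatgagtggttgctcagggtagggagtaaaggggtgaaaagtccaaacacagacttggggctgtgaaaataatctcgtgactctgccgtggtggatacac
Spdef: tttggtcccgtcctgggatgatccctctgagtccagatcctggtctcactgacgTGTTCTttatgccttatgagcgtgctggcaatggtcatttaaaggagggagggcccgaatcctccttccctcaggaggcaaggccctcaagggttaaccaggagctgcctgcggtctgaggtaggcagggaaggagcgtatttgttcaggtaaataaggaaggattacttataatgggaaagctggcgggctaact
Sprr1a: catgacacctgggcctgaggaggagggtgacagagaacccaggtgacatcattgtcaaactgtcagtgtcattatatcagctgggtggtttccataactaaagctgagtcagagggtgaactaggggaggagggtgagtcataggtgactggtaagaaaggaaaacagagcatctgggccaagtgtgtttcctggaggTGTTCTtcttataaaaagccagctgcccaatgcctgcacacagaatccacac
In the printed windows, the unit lay 123 bases before the start in Abcc4, 196 in Spdef and 52 in Sprr1a. Genes that read higher and genes that read lower both held it. The Fkbp5 and Camkk2 windows held none, which says only that these letters were not in those windows.

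The values are linear probe-set signals, and only signals of the same probe set are compared between arrays. A floor was set at the 50th percentile of signals, 166. Genes that reached it on 1 array or both were kept, a signal under it was set to the floor, and a fold that rests on such a signal is a bound, given with the words at least. Log2 ratios are of the knockout-labelled array over the wild-type array. The median signal was 154 on the knockout-labelled array and 177 on the wild-type array, and the Actb 3′ over 5′ signal ratio, a guide to RNA degradation, was 1.65 on the knockout-labelled array and 1.25 on the wild-type array. The same ratio for Gapdh was 0.847 on the knockout-labelled array and 0.714 on the wild-type array. The Eaf2 probe set read 702 on the knockout-labelled array and 691 on the wild-type array. Since the deleted part is not given, this checks nothing about the label, and the array is called knockout-labelled throughout. Ventral prostate markers were present on both arrays, with the secreted inhibitor Spink1 at 64718 on the knockout-labelled array and 62610 on the wild-type array and the secreted protein Msmb at 32270 on the knockout-labelled array and 41774 on the wild-type array.

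Of the 24 listed genes that reached the floor, 0 passed 2-fold, or 1.5-fold, in the brightest probe set with low signals set to the floor. For Pmepa1 and Sprr1a the ratio was a bound and the difference may be larger, and Sprr1a had a log2 ratio of -0.76 with the floor at the 30th percentile. Camkk2 read highest relative to wild type, at 1.49-fold, and Spdef, at 1.48-fold lower, and Pmepa1, at least 1.48-fold lower, read lowest. Among all 11671 genes at or above the floor, the share past 2-fold was 0.591% on the higher side and 0.883% on the lower side, and the share past 1.5-fold was 4.69% on the higher side and 6.26% on the lower side. In numbers, 69 genes were past 2-fold on the higher side and 103 on the lower side, a split that became 161 and 33 under median centring, 82 and 73 under quantile normalization and 95 and 61 under loess. Of the 24, 14 read higher and 10 lower on the knockout-labelled array, where 47% of all genes read higher and 53% lower. The share of all genes that read higher was 68.2% under median centring. The median log2 ratio of the 24 was 0.06, against -0.03 over all genes, and the SD of the log2 ratio was 0.345 over the 24 and 0.373 over all genes. The 24 are those that passed the floor, and 2 of them, Pmepa1 and Sprr1a, passed it on the wild-type array alone.

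**Figure D1:**
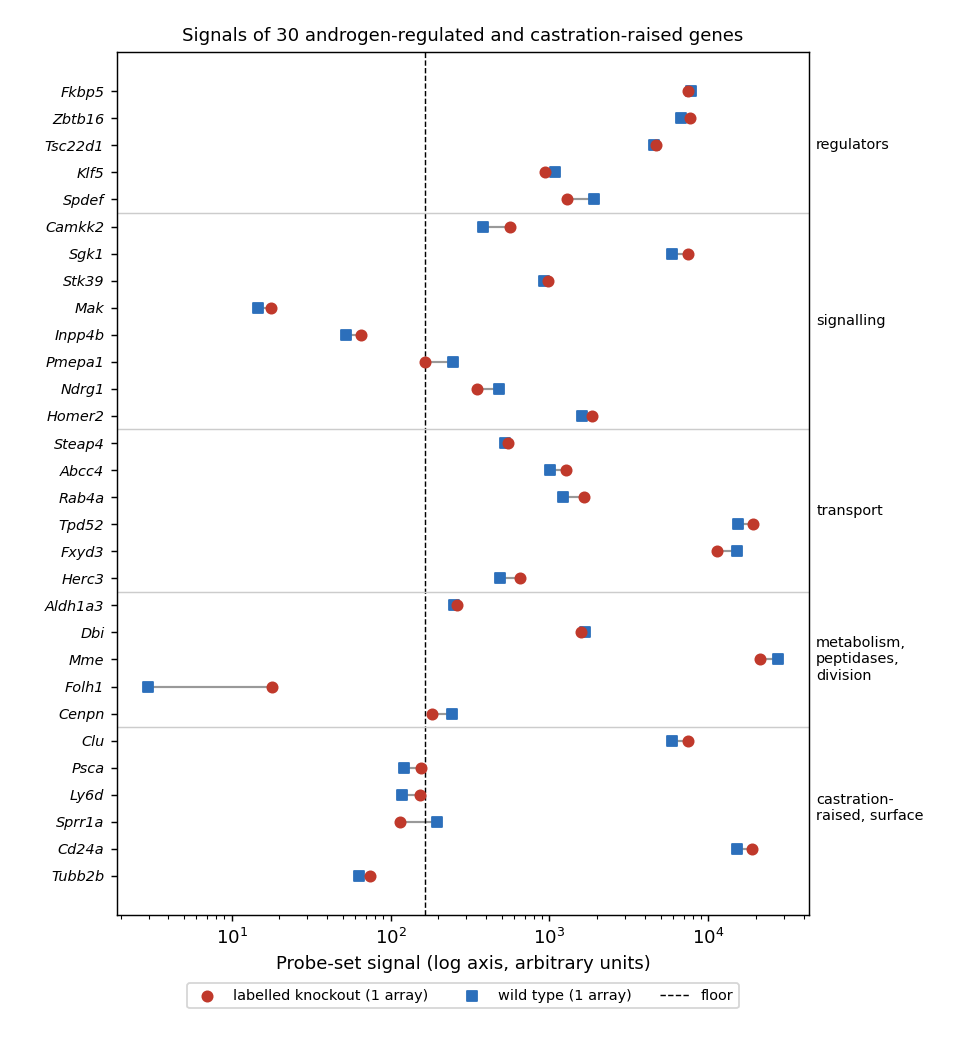
Signals of the 30 listed genes with a probe set, on a log axis, in the sample labelled knockout (circles) and in wild type (squares), 1 array each, by role of the gene, with the floor of 166 as a dashed line. The paired points lie close together for nearly all genes above the floor, and 6 genes lie below it on both arrays, where Folh1 has the widest gap, with 17.9 on the knockout-labelled array and 3.00 on the wild-type array.

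Among the transcription and receptor regulators, 2 genes read higher and 3 lower, where 47% of all genes read higher and 53% lower. Fkbp5 encodes a co-chaperone of steroid receptors and is used widely as a readout of androgen action. Its brightest probe set read 7493 on the knockout-labelled array and 7760 on the wild-type array, a log2 ratio of -0.05, and its other usable probe set read 2720 on the knockout-labelled array and 3779 on the wild-type array, a log2 ratio of -0.47. Both usable probe sets of Fkbp5 were lower on the knockout-labelled array, by unequal amounts. Spdef, an ETS-family transcription factor of prostate and other secretory epithelia, read 1299 on the knockout-labelled array and 1921 on the wild-type array, a log2 ratio of -0.56, in its only probe set.

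Zbtb16 encodes a zinc-finger repressor also known as PLZF. Its probe sets disagreed. The brightest read 7666 on the knockout-labelled array and 6694 on the wild-type array, a log2 ratio of 0.20, and the next read 1597 on the knockout-labelled array and 1168 on the wild-type array, a log2 ratio of 0.45. The dimmest read 343 on the knockout-labelled array and 745 on the wild-type array, 2.17-fold lower. Of 55 probe sets of the listed genes that reached the floor, it was the only one whose ratio, with low signals set to the floor, passed 2-fold. For probe sets with a bound, such as those of Camkk2 and Cenpn given below, the difference may be larger than the bound. Tsc22d1, a leucine-zipper protein induced by TGF-beta and steroids, read 4668 on the knockout-labelled array and 4545 on the wild-type array in its brightest probe set, a log2 ratio of 0.04, while 4 of its 6 usable probe sets read lower, down to -0.51. Klf5, a Krüppel-like factor of epithelial growth, read 937 on the knockout-labelled array and 1082 on the wild-type array, a log2 ratio of -0.21, and its other usable probe set had a ratio of 0.02.

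Among kinases and other signalling genes, 4 of the 6 that entered read higher, where 47% of all genes did. Camkk2, a calcium/calmodulin-dependent kinase kinase that androgens induce in human prostate cancer cells, read 568 on the knockout-labelled array and 381 on the wild-type array, a log2 ratio of 0.58. A further Camkk2 probe set read 253 on the knockout-labelled array and 47.5, under the floor, on the wild-type array, at least 1.52-fold higher. The remaining usable Camkk2 probe set, with 167 on the knockout-labelled array and 176 on the wild-type array, went the other way at -0.08. Sgk1, a serum- and glucocorticoid-regulated kinase, is the listed gene with the long form of the receptor element in an upstream window. It read 7422 on the knockout-labelled array and 5906 on the wild-type array, 1.26-fold higher in its only probe set. Homer2, a scaffold of receptor signalling, had log2 ratios of 0.20 and 0.20 in its usable probe sets, so that they differed little from each other. Stk39, a kinase that controls ion cotransporters, had 0.07 in its brightest probe set and -0.40 in the other.

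The genes that read lower in this group were Pmepa1 and Ndrg1. Pmepa1, a membrane adaptor that limits TGF-beta signalling, read 166 on the knockout-labelled array, at the floor, and 246 on the wild-type array, at least 1.48-fold lower. Its 2 other probe sets lay below the floor on both arrays. Ndrg1, a stress- and differentiation-linked gene also induced by hypoxia, read 351 on the knockout-labelled array and 478 on the wild-type array, a log2 ratio of -0.45. Of its 4 usable probe sets 3 read lower and 1, with 419 on the knockout-labelled array and 359 on the wild-type array, read higher by 0.22 on the log2 scale. Mak, a kinase of the male germ line, and Inpp4b, a phosphoinositide phosphatase, stayed below the floor on both arrays, and no fold is given for them. Mak read 17.8 on the knockout-labelled array and 14.7 on the wild-type array, and Inpp4b 65.2 on the knockout-labelled array and 52.2 on the wild-type array.

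Transport and trafficking genes were the group with the largest share of members higher, 5 of 6 with a median log2 ratio of 0.33. Of all genes, 47% read higher. The count rested in part on the choice of probe set. Without suffixed probe sets Tpd52 read lower, at -0.06, and Steap4 was not measured. Rab4a, a small GTPase of endosome recycling, read 1647 on the knockout-labelled array and 1221 on the wild-type array, and its other probe set read 795 on the knockout-labelled array and 593 on the wild-type array. These log2 ratios were 0.43 and 0.42, so that both Rab4a probe sets placed the knockout-labelled array higher by nearly the same amount. Herc3 is a ubiquitin ligase of the HERC family but was counted in this group. It read 648 on the knockout-labelled array and 491 on the wild-type array, a log2 ratio of 0.40. Abcc4, an ATP-driven exporter of organic anions and cyclic nucleotides, read 1274 on the knockout-labelled array and 1003 on the wild-type array, a log2 ratio of 0.35 in its only probe set. Steap4, a metalloreductase, read 550 on the knockout-labelled array and 529 on the wild-type array, a log2 ratio of 0.06, and a dimmer probe set was at least 1.28-fold higher.

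Tpd52, a protein of vesicle traffic, read 19160 on the knockout-labelled array and 15303 on the wild-type array, a log2 ratio of 0.32, but its 4 probe sets ran from 0.32 down to -0.79. The exception in the group was Fxyd3, a regulator of the sodium pump. Fxyd3 read 11396 on the knockout-labelled array and 15206 on the wild-type array, 1.33-fold lower in its only probe set.

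Of the metabolic, peptidase and division genes, 3 of the 4 that entered read lower, where 53% of all genes did. Mme encodes neprilysin, a cell-surface peptidase of luminal cells. It read 21061 on the knockout-labelled array and 27349 on the wild-type array in its brightest probe set and 5806 on the knockout-labelled array and 8631 on the wild-type array in the other, log2 ratios of -0.38 and -0.57. Both Mme probe sets placed the knockout-labelled array lower. Cenpn, a centromere protein, read 182 on the knockout-labelled array and 242 on the wild-type array, a log2 ratio of -0.42, and its other probe set was at least 1.12-fold lower. Dbi, the acyl-CoA binding protein, read 1588 on the knockout-labelled array and 1680 on the wild-type array, a log2 ratio of -0.08, while its other 3 probe sets read higher by 0.02 to 0.42. Aldh1a3, a retinaldehyde dehydrogenase, read 261 on the knockout-labelled array and 250 on the wild-type array, a log2 ratio of 0.07. Folh1, the peptidase known in human prostate as PSMA, read 17.9 on the knockout-labelled array and 3.00 on the wild-type array, far below the floor, and no fold is given.

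Clu, a secreted chaperone that rises in the rodent ventral prostate after castration, read higher in all of its 4 probe sets on the knockout-labelled array. The brightest read 7425 on the knockout-labelled array and 5918 on the wild-type array, 1.25-fold higher. The log2 ratios of the 4 ran from 0.04 to 0.36, and all 4 are of the kinds that can share sequence with other transcripts or variants (names ending in _x_at or _a_at). Cd24a, a surface glycoprotein of epithelial cells, read 18816 on the knockout-labelled array and 15251 on the wild-type array, a log2 ratio of 0.30, while its other 2 probe sets had -0.35 and -0.15. Its direction thus depended on the probe set.

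The remaining genes of the castration and surface group lay near the floor, except Tubb2b, which lay well below it. Sprr1a, a cornified envelope protein, read 115, a signal under the floor, on the knockout-labelled array and 195 on the wild-type array, at least 1.18-fold lower. Psca, prostate stem cell antigen, read 156 on the knockout-labelled array and 122 on the wild-type array. Ly6d, a surface protein of castration-resistant luminal cells in the mouse, read 154 on the knockout-labelled array and 119 on the wild-type array, and Tubb2b, a beta-tubulin, read 74.4 on the knockout-labelled array and 63.6 on the wild-type array. With the floor lowered to the 30th percentile, a signal of 65.8, Psca and Ly6d had log2 ratios of 0.36 and 0.38 and Tubb2b a bound of 0.18.

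**Figure D2:**
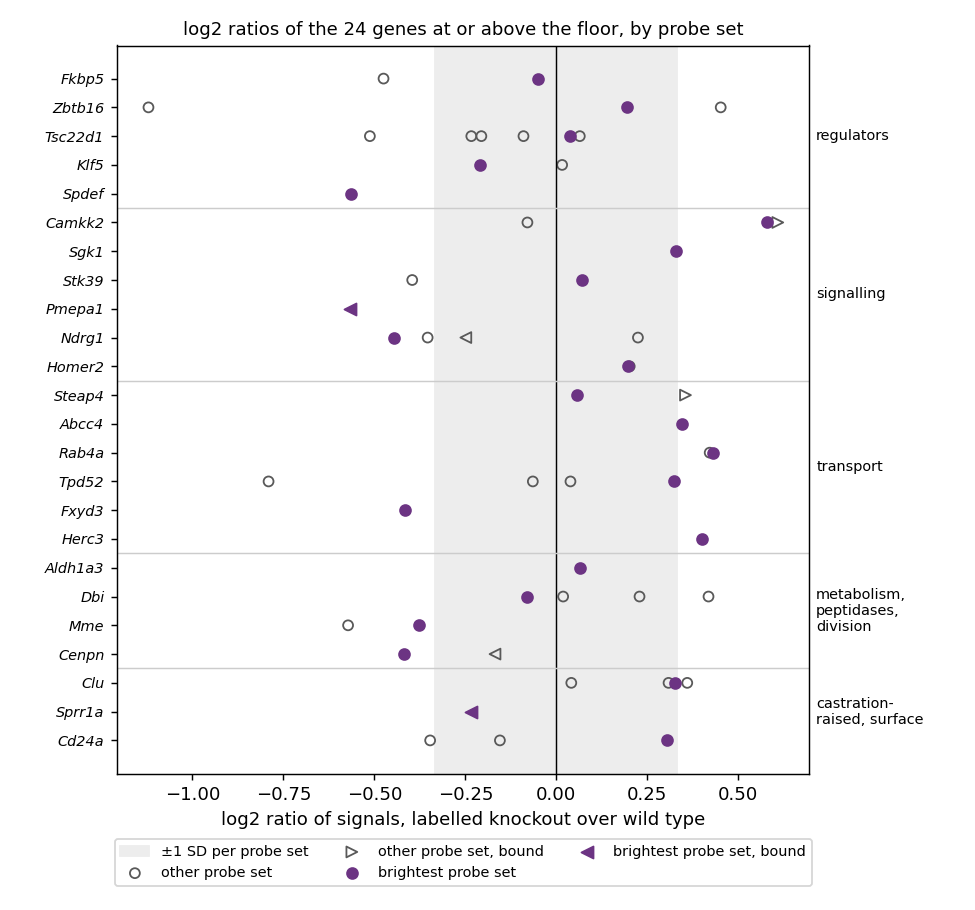
Log2 ratios of signals, knockout-labelled over wild-type, for the 24 listed genes at or above the floor. Filled symbols are the brightest probe set, open symbols the gene's other usable probe sets, triangles bounds, and the grey band is 1 SD of a single probe set, 0.332 either way. Filled points run from -0.57 for Pmepa1 to 0.58 for Camkk2, and open points fall on the other side of 0 for Zbtb16, Tsc22d1, Cd24a and others.

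The spread available inside these data was among the probe sets of a gene, which reflects the probes and holds nothing of the spread between animals, dissections or hybridisations. For 4497 genes, 2 or more probe sets reached the floor on each of the arrays. In these genes the difference in log2 ratio between the 2 brightest had an SD of 0.470, or 0.332 per probe set, and they shared a sign in 55.9% of genes. Of the listed genes, 4 lay above 0.332 (Camkk2, Rab4a, Herc3 and Abcc4) and 6 below -0.332 (Pmepa1, Spdef, Ndrg1, Cenpn, Fxyd3 and Mme). Over all genes these shares were 15.6% and 18.1%. Of 16 listed genes with at least 2 usable probe sets, 7 had all of them on one side of 0, that is Clu, Rab4a, Homer2 and Steap4 on the higher side and Fkbp5, Mme and Cenpn on the lower side. Among 5172 genes of the array with at least 2 usable probe sets, 42.6% had all on one side.

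**Figure D3:**
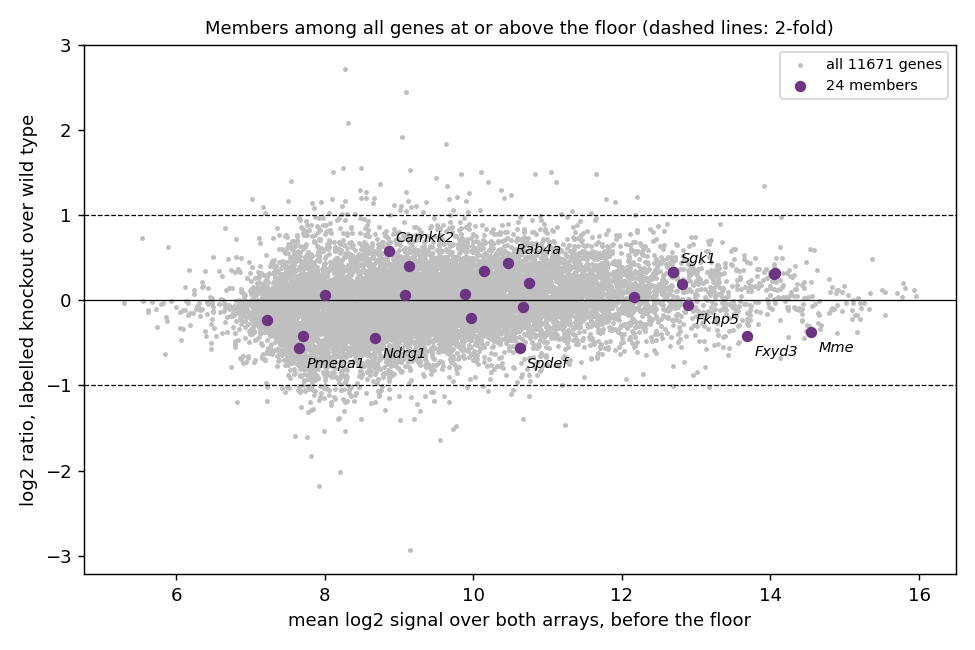
Log2 ratio against mean log2 signal before the floor for all 11671 genes at or above it (grey) and for the 24 listed genes (purple). All listed genes lie between the dashed 2-fold lines, Pmepa1 and Sprr1a as bounds, inside the cloud of genes of similar signal.

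Of the 24 listed genes, 2 changed sign under median centring, 1 under quantile normalization and 1 under loess. Median centring of all probe sets moved the median of all genes up by 0.19, and Fkbp5 and Dbi then read higher, while quantile normalization and loess each placed Tsc22d1 lower. Relative to the median of all genes, the median of the listed genes was 0.09 higher, and it was 0.09 higher under median centring, 0.05 under quantile normalization and 0.10 under loess. The offset was 0.000657 with the median over a gene's probe sets, and it turned to -0.03 when suffixed probe sets (_s_at, _x_at and _a_at) were dropped. Counting the choice of probe set and floor as well, Abcc4, Aldh1a3, Clu, Herc3, Homer2, Rab4a, Sgk1, Steap4 and Zbtb16, 9 genes, read higher under every alternative that measured them, and Cenpn, Fxyd3, Mme, Pmepa1, Spdef and Sprr1a, 6 genes, read lower. The dimmest Zbtb16 probe set, which read lower, represented the gene in none of them. A gene with a single usable probe set could not turn with the choice of probe set. The other 9 turned at least under 1 alternative.

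Other genes named as androgen-responsive were set beside the listed ones, from a list of 68 genes of the general androgen response. Whether these 68 respond to androgens in mouse ventral prostate was not measured here. Of these, 61 entered, 44 read higher and 17 lower on the knockout-labelled array, and the median log2 ratio was 0.15. Of all genes, 47% read higher. Past 2-fold lay 1 of the 61 on the higher side and 0 on the lower side, where the background was 0.591% and 0.883%. The median was 0.12 under quantile normalization and 0.13 under loess, where the medians of all genes were 0.01 and 0.05, and median centring gave 53 of 61 higher, where 68.2% of all genes read higher. With the median over a gene's probe sets the list median was 0.08, with 37 of 61 higher, where 42.3% of all genes read higher. With the probe set nearest 0 the list median was also 0.08. The medians of all genes in these 2 settings were -0.06 and -0.03. Under the 70th-percentile floor, 41 of 53 read higher, where 52.8% of all genes did.

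The highest of these was Appbp2, a microtubule-associated adaptor, which read 2073 on the knockout-labelled array and 899 on the wild-type array, 2.30-fold higher, where 3 of its 5 usable probe sets were higher and the lowest at -0.55. The phosphatase gene Cdc14b was at least 1.54-fold higher, with another probe set at -0.24. Tmprss2, a luminal serine protease, read 6640 on the knockout-labelled array and 4592 on the wild-type array, a log2 ratio of 0.53, and 2 of its 3 probe sets were higher. Srp19, of the signal recognition particle, had 0.49 and Iqgap2, a scaffold protein, 0.46, with its other probe set at -0.14. The lowest were Hpgd, which degrades prostaglandins, at -0.48, the lipid hydrolase Abhd2 at -0.43, the keratin Krt19 at -0.39, the kinase Akt1 at -0.39 and the SUMO ligase Pias1 at -0.39. Hpgd, Abhd2 and Pias1 each had a probe set on the higher side, whereas all 3 of Akt1 were lower.

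Of 9 other genes tied to castration or to the progenitor-like luminal cells that remain after it, 7 entered, with 4 higher and 3 lower. Of all genes, 47% read higher. The median log2 ratio of the 7 was 0.07. It lay below 0 under each other choice of probe set, at -0.09 when a gene's probe sets were summarised by their median, at -0.11 when suffixed ones were dropped and at -0.06 for the one nearest 0. Atp1b1, a sodium pump subunit, had 0.32 and Tgfbr2, a TGF-beta receptor, 0.26, each with probe sets on both sides of 0. Mgp, a matrix protein made by stromal cells, read 1510 on the knockout-labelled array and 2562 on the wild-type array, a log2 ratio of -0.76, and the glutathione transferase Gsta4 had -0.46. Castration-associated genes therefore lay on both sides of 0, with Clu on the higher side and Mgp and Gsta4 on the lower.

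**Figure D4:**
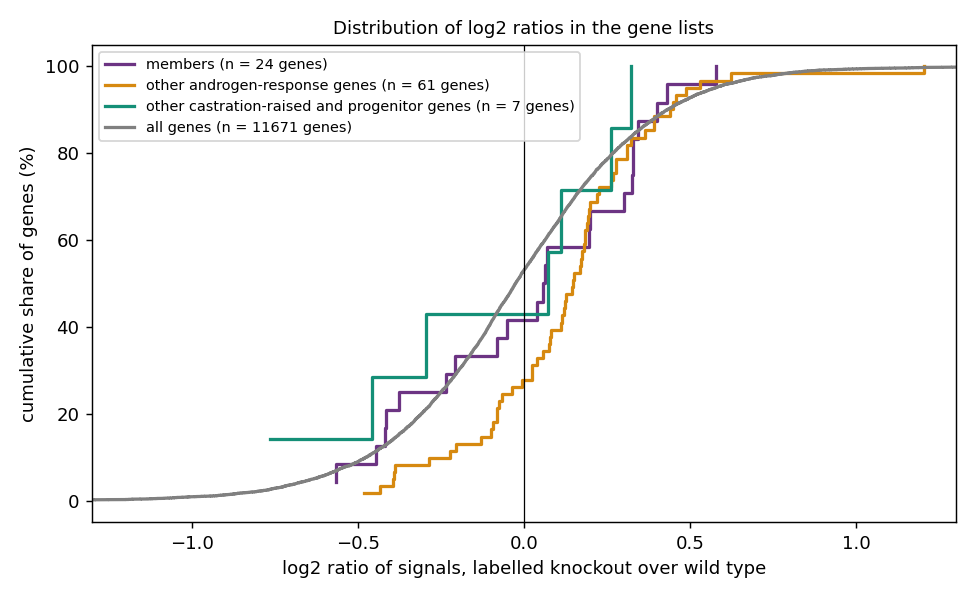
Cumulative share of genes by log2 ratio for the 24 listed genes, 61 other androgen-response genes, 7 other castration-raised and progenitor genes and all 11671 genes. The curve of the other androgen-response genes crosses 0 at 27.9%, that of the listed genes at 41.7% and that of all genes at 53.0%.

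Markers of several cell types read differently on the arrays, and their part in these results was not tested. Of all genes, 47% read higher and 53% lower. Smooth muscle markers were lower in 5 of 5, with summed signals, here with no value set to the floor, of 29032 on the knockout-labelled array and 38695 on the wild-type array. Fibroblast and matrix markers were lower in 4 of 4, with sums of 16026 on the knockout-labelled array and 18874 on the wild-type array. Their log2 ratios were -0.78 for Pdgfra and -0.60 for Col3a1, but only -0.03 for Dcn and -0.05 for Col1a1. Another Col1a1 probe set read -1.26. Adipocyte markers read higher in 3 of 5 that entered, with sums of 3176 on the knockout-labelled array and 1566 on the wild-type array. Much of the adipocyte difference was that of Car3, a carbonic anhydrase of fat and muscle, at 1278 on the knockout-labelled array and 234 on the wild-type array, while Plin4 and Retn read lower. Urothelial markers were lower in 3 of 4, with sums of 4804 on the knockout-labelled array and 6703 on the wild-type array. Secretory epithelial markers were closer, 2 of 5 higher and sums of 124881 on the knockout-labelled array and 132514 on the wild-type array. Basal markers read higher in 2 of 3 that entered, with sums of 1515 on the knockout-labelled array and 1801 on the wild-type array. The lower one was Krt5, at 504 on the knockout-labelled array and 772 on the wild-type array. Endothelial markers read higher in 1 of 3 that entered, with sums of 1058 on the knockout-labelled array and 1161 on the wild-type array. Emcn read 172 on the knockout-labelled array and 285 on the wild-type array, and Kdr 480 on each. Leukocyte markers read higher in 2 of 3 that entered, with sums of 1101 on the knockout-labelled array and 1086 on the wild-type array. Skeletal muscle markers read lower in 2 of 2 that entered, with sums of 1301 on the knockout-labelled array and 2013 on the wild-type array. The 5 seminal vesicle markers were below the floor on both arrays, and no marker of any list had a signal of 0. Fewer cells of a type and less RNA per cell cannot be told apart in such bulk samples.

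**Figure D5:**
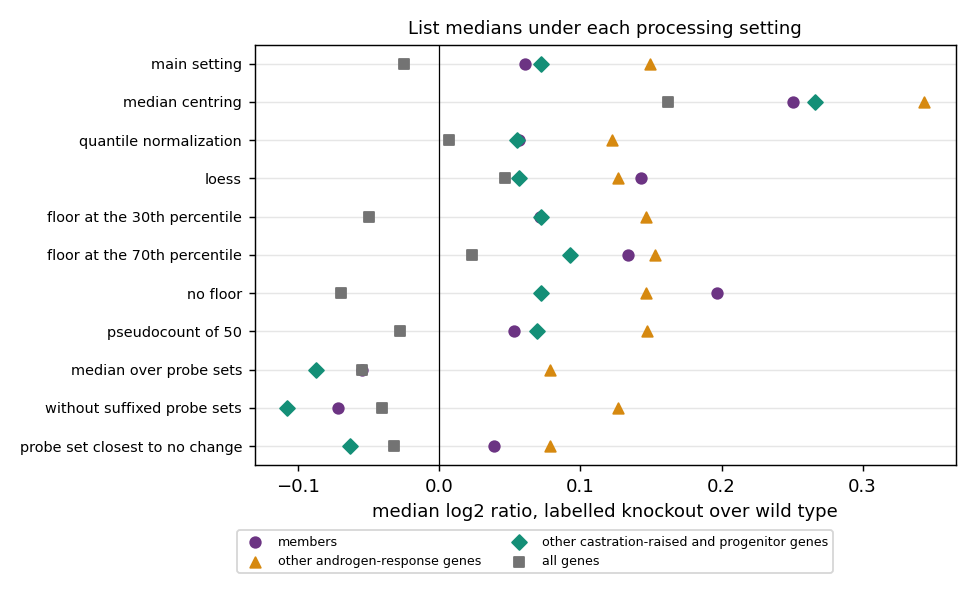
Median log2 ratio of the listed genes, of the 2 other lists and of all genes under the main setting and each of 10 alternatives. The median of the other androgen-response genes lies above 0 in all of them, that of the listed genes falls to -0.05 and -0.07 with the median over probe sets and without suffixed probe sets, and that of the other castration-raised genes falls below 0 in these and in the bottom row.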

How the data were processed

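Ventral prostate mRNA was measured on Affymetrix mouse arrays, 1 sample labelled U19/Eaf2 -/- and 1 wild-type sample. The deposited values are linear intensities per probe set; GCOS 1.4 is named by the submitters' processing notes, with settings not stated. With the top and bottom 2% of probe sets trimmed, the mean was 500.0 on either array, so each had been scaled as a whole.

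Of 45037 non-control probe sets, 34945 had 1 gene symbol in the platform annotation, 932 several and 9160 none. Of the single-symbol probe sets 34741 matched a GRCm38.p6 gene table by Entrez ID, with 0 symbols differing. Signals below the floor (50th percentile, 166) were raised to it before log2 ratios were taken. No test was possible, and the number of arrays limits the precision. Alternatives were median centring, quantile normalization, loess (span 0.4), a pseudocount of 50, no floor or a floor at the 30th or 70th percentile, 3 other choices of probe set, the mean in place of the median, and folds of 1.5 and 3. The steps from signals to ratios, apart from the setting with no floor, were tested on simulated data with 2-fold changes in 200 genes. These genes lay well above the floor, all probe sets of a gene changed together, and little noise was added. The simulation thus did not cover smaller differences, signals near the floor or probe sets that disagree. All listed genes are named; of the other lists the 5 highest and 5 lowest are, or 2 and 2 for a list under 20 genes. The members and lists were chosen with earlier results of these data known. Python 3.11.15, pandas 2.3.3 and statsmodels 0.14.6 were used.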

Additional observations from a re-analysis of the deposited data

How the results depend on the processing

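The count of listed genes past 2-fold was 0 on either side in all alternatives but that with no floor, where 1 gene (Folh1, from signals far below the floor) was at least 2-fold higher. With a 3-fold threshold the counts were 0 and 0, and with 1.5-fold also 0 and 0. At 1.5-fold, 3 listed genes were higher under median centring, which moved the median of all genes up by 0.19. The count of higher listed genes was 1 under quantile normalization, 1 under loess and 1 with no floor. That of lower ones was 1 under quantile normalization, 1 under loess, 1 with no floor and 1 under the 30th-percentile floor. The share of all genes past 1.5-fold was counted in the main setting only. Of 20 listed genes measured without suffixed probe sets, 8 read higher, and the median was -0.07. It was -0.05 with the median over probe sets, 0.13 under the 70th-percentile floor and 0.20 with no floor.

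Among the other androgen-response genes, median centring left 8 lower and gave 9 at least 1.5-fold higher, against 2 in the main setting. Median centring moved the median of all genes up by 0.19, and 161 of all genes were then past 2-fold higher, against 69. The share of all genes past 1.5-fold was not counted under median centring. The 1.5-fold higher count was 1 under the 70th-percentile floor and 0 when the probe set nearest 0 was used, and 1 gene was 1.5-fold lower without suffixed probe sets. The 2-fold higher count was 0 with the median over probe sets and 0 with the probe set nearest 0. Among the other castration-raised genes, 0 were 1.5-fold lower under median centring against 1 in the main setting. Using the probe set nearest 0, 2 of these genes were higher and 5 lower, where 43.9% of all genes read higher. Over all genes, the 69 past 2-fold on the higher side and 103 on the lower became 203 and 505 under the 30th-percentile floor. The causes of these shifts were not tested beyond what each setting does by construction. No paired analysis was possible because each group held 1 sample. Low signals limit Mak, Inpp4b, Folh1, Psca, Ly6d and Tubb2b, which lay below the floor.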
